A study of Rattus norvegicus with 6 samples.

Results

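The genes described here are the cytosolic and mitochondrial molecular chaperones and the DNAJ cochaperones of rat aorta. They were taken by symbol from the deposited expression table: every Hspa, Hsp90aa, Hsp90ab, Dnaja, Dnajb and Dnajc gene, the Cct and Bag genes with a short numbered symbol, and Hsph1, Hspd1, Hspe1, Chordc1, Tcp1, Hsf1, Hsf2, St13, Stip1 and Ahsa1. Hspa5, Dnajb9, Dnajb11 and Dnajc3, which act in the endoplasmic reticulum, were left out. This gave 79 genes of the 24005 in the table. The label holds for most but not all of them, because the symbols also take in proteins known from the endoplasmic reticulum, such as Hspa13, Dnajc1, Dnajc10, Dnajb12 and Dnajb14. All 6 libraries came from aorta of rats with chronic kidney disease, made by subtotal nephrectomy in 2 operations, and all animals ate a diet with 1.2% phosphorus that speeds up calcification of the vessel wall. The 3 saline libraries came from rats given normal saline for 13 weeks. The 3 exosome libraries came from rats given ANCR/E7-EXO, engineered exosomes (small vesicles released by cells), at 10 mg/kg into the tail vein every 5 days. The labels give no age, strain or sex of the rats and do not say whether each library came from 1 animal, and no library came from rats without kidney disease.

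Chaperones bind unfolded or partly folded proteins and help them to fold, to assemble or to be degraded. HSP70 proteins do so in a cycle of ATP hydrolysis that DNAJ proteins (also called HSP40) start and that nucleotide exchange factors, among them the BAG proteins and Hsph1, complete. HSP90 takes over clients such as kinases and steroid receptors with the help of cochaperones, and the ring-shaped chaperonins TRiC (cytosol) and HSP60 with HSP10 (mitochondria) enclose their clients. Under heat or other stress that unfolds proteins, the transcription factor HSF1 forms trimers, binds heat shock elements (inverted repeats of GAA) and induces part of these genes, while others are expressed steadily.

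The sequences below show this element in 4 of the 24 chaperone genes whose highest library was over 2 times the lowest. The RefSeq promoter table (GRCr8) held 64 of the 79 genes. Hsp90aa1, St13, Dnajb4, Dnajc22 and Dnajc24, which are among those 24, were not in it and so were not searched. For the genes in it, the 250 bases before each annotated start were searched on both strands. A 3-unit element is GAA, any 2 bases, TTC, any 2 bases and GAA, or its reverse complement with TTC, GAA and TTC spaced alike. It was found for 4 chaperone genes (6.25%), against 182 of all 27457 genes with a promoter (0.663%). Among the 8729 of them tested for expression below, the share was 0.424%. A 2-unit element is GAA and TTC in either order with any 2 bases between them, and it also lies within each 3-unit element. It was found for 16 chaperone genes (25%), against 14.3% of all genes with a promoter and 10.2% of the tested ones. Capitals mark the 3-unit matches, and each window reads 5′ to 3′ and ends at the base before the annotated start.
Hsph1 (chr12:10427118-10427367, plus strand): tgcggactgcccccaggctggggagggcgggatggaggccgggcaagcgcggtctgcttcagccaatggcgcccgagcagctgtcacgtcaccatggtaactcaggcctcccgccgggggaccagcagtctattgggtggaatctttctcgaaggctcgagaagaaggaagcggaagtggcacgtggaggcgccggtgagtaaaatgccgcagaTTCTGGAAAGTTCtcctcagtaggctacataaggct
Hspa8 (chr8:50080264-50080513, plus strand): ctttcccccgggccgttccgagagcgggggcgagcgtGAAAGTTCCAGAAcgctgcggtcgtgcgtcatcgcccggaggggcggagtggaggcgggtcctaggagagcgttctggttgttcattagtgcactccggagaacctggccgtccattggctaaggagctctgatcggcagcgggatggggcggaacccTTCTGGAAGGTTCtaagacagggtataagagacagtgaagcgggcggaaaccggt
Hspd1 (chr9:64084038-64084287, minus strand): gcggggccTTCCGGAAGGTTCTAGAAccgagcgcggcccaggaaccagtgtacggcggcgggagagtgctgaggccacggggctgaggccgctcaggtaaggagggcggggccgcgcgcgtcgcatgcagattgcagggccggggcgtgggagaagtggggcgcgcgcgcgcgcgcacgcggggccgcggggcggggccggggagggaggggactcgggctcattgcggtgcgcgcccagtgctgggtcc
Hspe1 (chr9:64084077-64084326, plus strand): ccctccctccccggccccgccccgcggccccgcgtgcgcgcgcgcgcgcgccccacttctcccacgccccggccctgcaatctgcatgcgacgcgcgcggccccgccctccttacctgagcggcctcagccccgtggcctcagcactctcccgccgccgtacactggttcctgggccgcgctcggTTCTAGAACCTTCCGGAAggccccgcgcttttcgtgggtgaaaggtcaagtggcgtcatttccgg
Hspd1 and Hspe1, which encode HSP60 and its partner HSP10, start head to head, and their windows share 211 bases, so the 2 overlapping matches 225 to 242 bases upstream of Hspd1 are the same stretch as those 48 to 65 bases upstream of Hspe1. The match of Hsph1 lies 24 to 36 bases upstream of its start. Hspa8 has 2 matches between 213 and 43 bases upstream. A match describes these letters only; binding was not measured.

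Values are given as FPKM, which corrects reads for the length of the gene and the depth of the library. The size of the steps between low values gave the depth: the saline libraries held 29665532 to 34009970 reads or pairs and the exosome libraries 28063355 to 44561082. Exosome 3 was thus the deepest library and exosome 2 the shallowest. Of all 11742 genes with a mean of at least 1 FPKM, 1 passed limma's test (adjusted p under 0.05), and it was none of the chaperones. Smooth muscle markers (5 of 5 tested, 3 higher with exosomes) were at a summed 13191 to 21001 FPKM in the saline libraries and 14612 to 20787 in the exosome libraries. Smooth muscle markers, which define the labelled tissue, were thus present in every library. The 5 T and B cell markers stayed below 1 FPKM in every library. Skeletal and cardiac muscle markers summed to 6.82 to 13.4 FPKM with saline and 8.22 to 20.7 with exosomes, the highest in exosome 3. Macrophage markers (5 of 5 higher) summed to 41.1 to 45.3 FPKM with saline and 63.3 to 70.7 with exosomes, without overlap. Adipocyte markers (0 of 5 higher) summed to 317 to 1084 FPKM with saline and 356 to 627 with exosomes, and adventitial fibroblast markers (1 of 5 higher) to 1463 to 2388 and 1536 to 1937. Red cell markers (1 of 3 higher) summed to 112 to 270 FPKM with saline and 64.4 to 219 with exosomes. Endothelial markers (4 of 5 higher) summed to 67.8 to 94.2 FPKM with saline and 101 to 157 with exosomes. Only the macrophage and endothelial sums thus had no overlap between the groups, and those of the other lists overlapped. The part of cell types in the chaperone values was not tested.

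Of the 79 chaperone genes, 69 reached the mean of 1 FPKM and were tested. None passed limma's test with Benjamini-Hochberg adjustment over all 11742 genes, where 0.00852% passed, and none passed in limma-voom on recovered reads. The smallest adjusted p was 0.255 (St13). At an unadjusted p under 0.05, limma found 11 chaperone genes higher with exosomes (15.9% of those tested, against 6.75% of all genes) and 1 lower (1.45%, against 9.24%). Both directions together made 12 of the 69 chaperone genes, beside 16% of all genes. The median log2 difference of exosome minus saline, on the log2(FPKM + 1) scale, was 0.09 over the chaperone genes and -0.07 over all tested genes. For 7 chaperone genes every exosome library was above every saline library, 10.1% against a background of 9.4%. For 5 every exosome library was below, 7.25% against a background of 11.7%. Both shares were near or below the background, and they are no result about the chaperone genes.

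The exosome libraries differed from each other. Exosome 1 was above the range of the 3 saline libraries for 31 of the 69 tested chaperone genes (all genes: 19.9%), exosome 3 for 36 (all genes: 23.8%) and exosome 2 for 17 (all genes: 29.7%). Exosome 2 was within the saline range for 38 genes (all genes: 48.5%) and below it for 14 (all genes: 21.8%). Exosome 1 was below the saline range for 21 genes (all genes: 41.7%) and exosome 3 for 24 (all genes: 45.9%), while exosome 1 was within it for 17 (all genes: 38.3%) and exosome 3 for 9 (all genes: 30.2%). Exosome 3 was the highest of the 6 libraries for 34 chaperone genes, against 16.1% of all genes, and the lowest for 19, against 34.3% of all genes. In 24 of the 69 genes (34.8%) the highest library was over 2 times the lowest, against 25.5% of all genes. Without exosome 2, 29 chaperone genes were higher at an unadjusted p under 0.05 (all genes: 8.23%) and 11 lower (all genes: 19.2%) in limma. Still none passed the adjusted threshold, with a smallest adjusted p of 0.0603 (Cct3). Exosome 1 and 3 were both above every saline library for 30 genes (all genes: 14.9%) and both below for 19 (all genes: 33.5%). With library weights estimated from the data, exosome 1 weighed most and the estimation did not converge. Under these weights limma called 28 of the 69 chaperone genes at the adjusted threshold, beside 27.8% of all genes. With exosome 1 and 3 left out, the median difference of the chaperone genes was -0.02. Depth was highest in exosome 3 and lowest in exosome 2, and its part in the result was not tested.

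**Figure D1:**
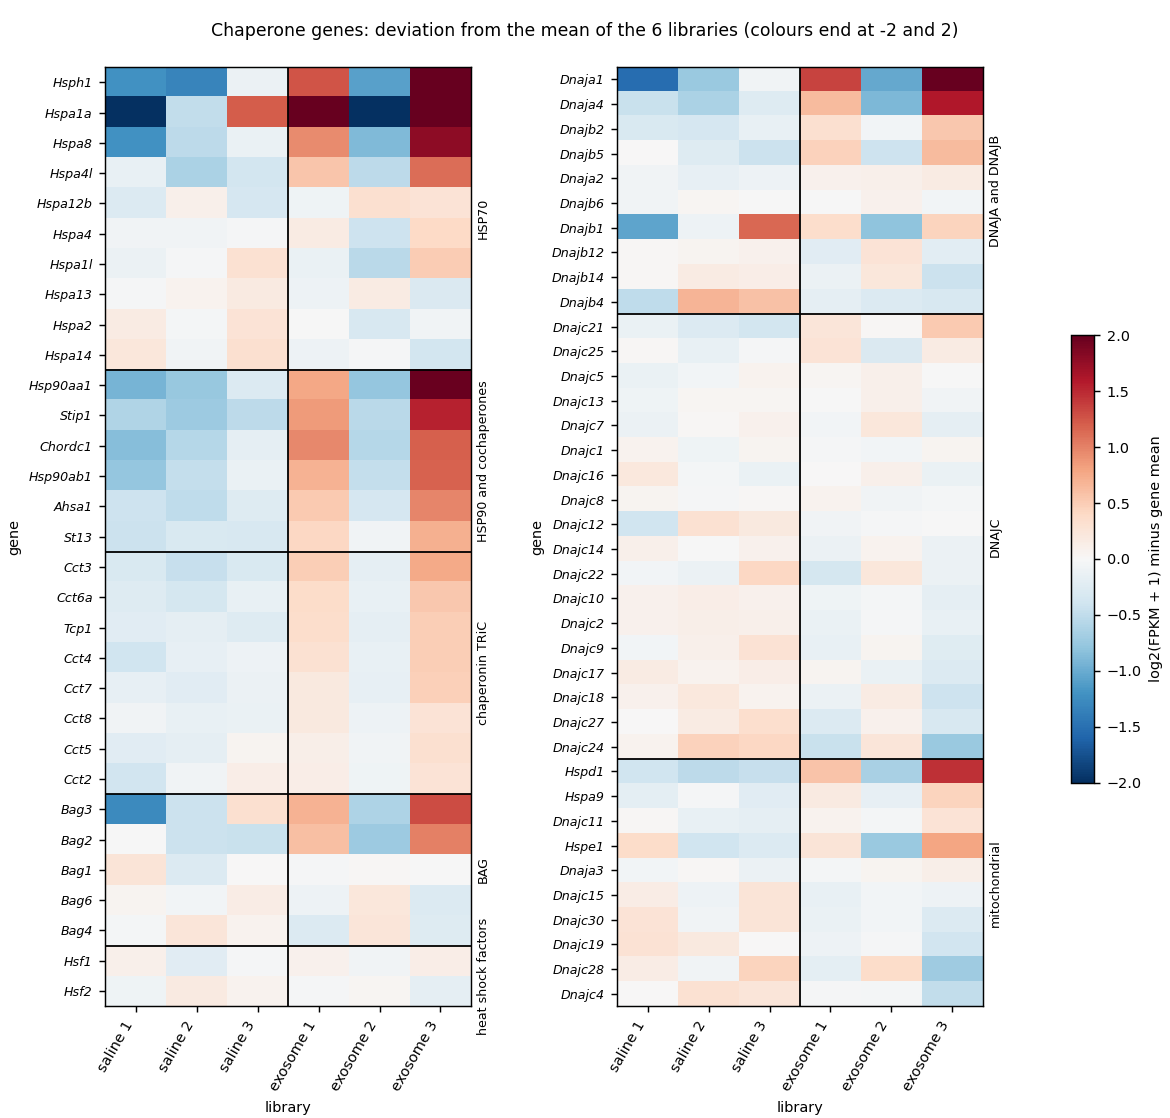
Each row is a tested chaperone gene and each column a library; the colour gives log2(FPKM + 1) minus the gene's mean over the 6 libraries, with colours ending at -2 and 2 and genes ordered by the exosome minus saline difference within each role. Red cells gather in exosome 1 and exosome 3 for HSP90, TRiC and part of the HSP70 and DNAJ genes. Exosome 2 resembles the saline columns except for HSP70. The median deviation of HSP70 was -0.465 in exosome 2, against -0.132, -0.067 and 0.075 in saline 1, 2 and 3.

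**Figure D2:**
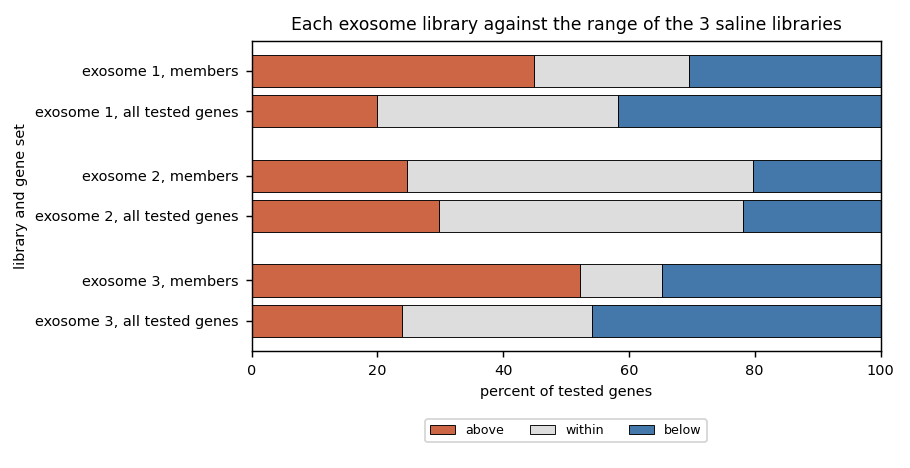
Bars give the percent of tested genes for which an exosome library was above, within or below the range of the 3 saline libraries, for the 69 chaperone genes and for all 11742 genes. Exosome 1 and exosome 3 were above that range more often among chaperone genes than among all genes, and exosome 2 was not.

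Hspa1a and Hsph1 had the widest ranges of the tested chaperone genes. Hspa1a, the stress-inducible HSP70, stood at 6.27, 44.3 and 146 FPKM in saline 1, 2 and 3 and at 272, 10.6 and 427 FPKM in exosome 1, 2 and 3. Its highest library was 68.1 times its lowest, and the groups overlapped: exosome 2 lay near the lowest saline library, and the saline libraries themselves spread widely. The log2 difference was 1.60 with a standard error of 1.52 (adjusted p = 0.595 in limma), and the reads ranged from 521 to 47126 per library. With 1 library left out it lay between 0.44 (without saline 1) and 3.23 (without exosome 2). Hspa1b, a near-identical copy, was not analysed here, and reads of both copies may be counted in this value.

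Hsph1, a large HSP70 relative that acts as a nucleotide exchange factor, stood at 38.4, 35.5 and 83.5 FPKM with saline and at 218, 41.9 and 512 FPKM with exosomes. Hspa8, the constitutive HSC70, stood at 221, 355 and 465 FPKM with saline and at 985, 276 and 1769.9 FPKM with exosomes. In both genes exosome 3 was the highest library, exosome 1 came next, and exosome 2 lay within the saline range. Their log2 differences were 1.77 ± 0.83 (SE) for Hsph1 and 1.24 ± 0.63 for Hspa8, with adjusted p of 0.337 and 0.362 in limma. Without exosome 3 the differences were 0.97 and 0.65, and without exosome 2 they were 2.76 and 1.99. Hspa4l, a paralog of Hspa4, had the same order at a low level, from 1.45 to 2.43 FPKM with saline and at 4.57, 1.65 and 7.29 FPKM with exosomes. Hspa4 stood between 87.5 and 90.8 FPKM with saline and at 103, 69.3 and 122 FPKM with exosomes, so here exosome 2 was below the saline range.

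The other HSP70 genes did not have this order. Hspa14, a ribosome-associated HSP70, stood at 11.7, 9.33 and 12.6 FPKM with saline and at 9.15, 9.72 and 7.43 FPKM with exosomes (log2 difference -0.32, adjusted p = 0.343 in limma). Hspa2 (-0.27), Hspa13 (-0.15) and Hspa1l (-0.11) were the other genes of this list with a negative log2 difference, although exosome 3 was the highest library for Hspa1l. Hspa13 stood at 25.0, 29.9 and 21.8 FPKM with exosomes, and here exosome 2 was the highest of the group. Hspa12b, known from endothelial cells, stood at 6.84, 9.17 and 6.52 FPKM with saline and at 7.95, 10.8 and 10.4 FPKM with exosomes. Endothelial markers summed to 67.8 to 94.2 FPKM with saline and 101 to 157 FPKM with exosomes, with 4 of 5 higher, and their part in the value of Hspa12b was not tested. In bulk tissue, more cells of a type and more RNA per cell cannot be told apart. Of 10 tested HSP70 genes 6 had a positive difference (all genes: 39.3%), and the list's median was 0.22.

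All 6 members of the list of HSP90 and its cochaperones had a positive log2 difference (all genes: 39.3%), from 0.70 to 1.32, with a median of 0.99. They kept that sign under each scaling tried. The median was 0.612 without exosome 3 and 1.503 without exosome 2. It was 0.02 when exosome 2 alone was set against saline, with 3 members higher and 3 lower. Hsp90ab1, the constitutive HSP90 isoform, stood at 313, 384 and 492 FPKM with saline and at 868, 384 and 1219.8 FPKM with exosomes (log2 difference 0.93 ± 0.40, adjusted p = 0.314 in limma). Hsp90aa1, the inducible isoform, had far fewer reads, 375 to 4721 per library. It stood at 4.19, 4.84 and 7.17 FPKM with saline and at 15.9, 4.80 and 38.0 FPKM with exosomes (log2 difference 1.32 ± 0.61, adjusted p = 0.334). Exosome 2 lay within the saline range for both isoforms, and exosome 1 and 3 lay above it.

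Stip1, known as HOP, which links HSP70 to HSP90, stood at 46.6, 42.3 and 49.2 FPKM with saline and at 129, 48.6 and 207 FPKM with exosomes. The saline libraries were close together, and exosome 2 lay among them. Its log2 difference was 1.23 ± 0.46 with an adjusted p of 0.289 in limma. Ahsa1, which stimulates the ATPase of HSP90, stood at 47.2, 44.5 and 53.0 FPKM with saline and at 92.1, 50.1 and 126 FPKM with exosomes. Chordc1, an HSP90 cochaperone with zinc-binding domains, stood at 12.0, 14.8 and 19.7 FPKM with saline and at 44.6, 14.8 and 52.6 FPKM with exosomes. In these cochaperones, as in the HSP90 genes, exosome 2 did not leave the saline range.

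St13, the HSP70-interacting protein HIP, was the exception in this list. It stood at 66.1, 71.6 and 71.3 FPKM with saline and at 119, 84.8 and 146 FPKM with exosomes. All exosome libraries, exosome 2 included, lay above all saline libraries. The group values were 69.7 ± 3.11 and 117 ± 30.8 FPKM (mean ± SD, n = 3 each). The log2 difference was 0.70 ± 0.19 with an adjusted p of 0.255 in limma, the smallest among the chaperone genes. It did not pass the threshold, and leaving out any single library did not make it pass.

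**Figure D3:**
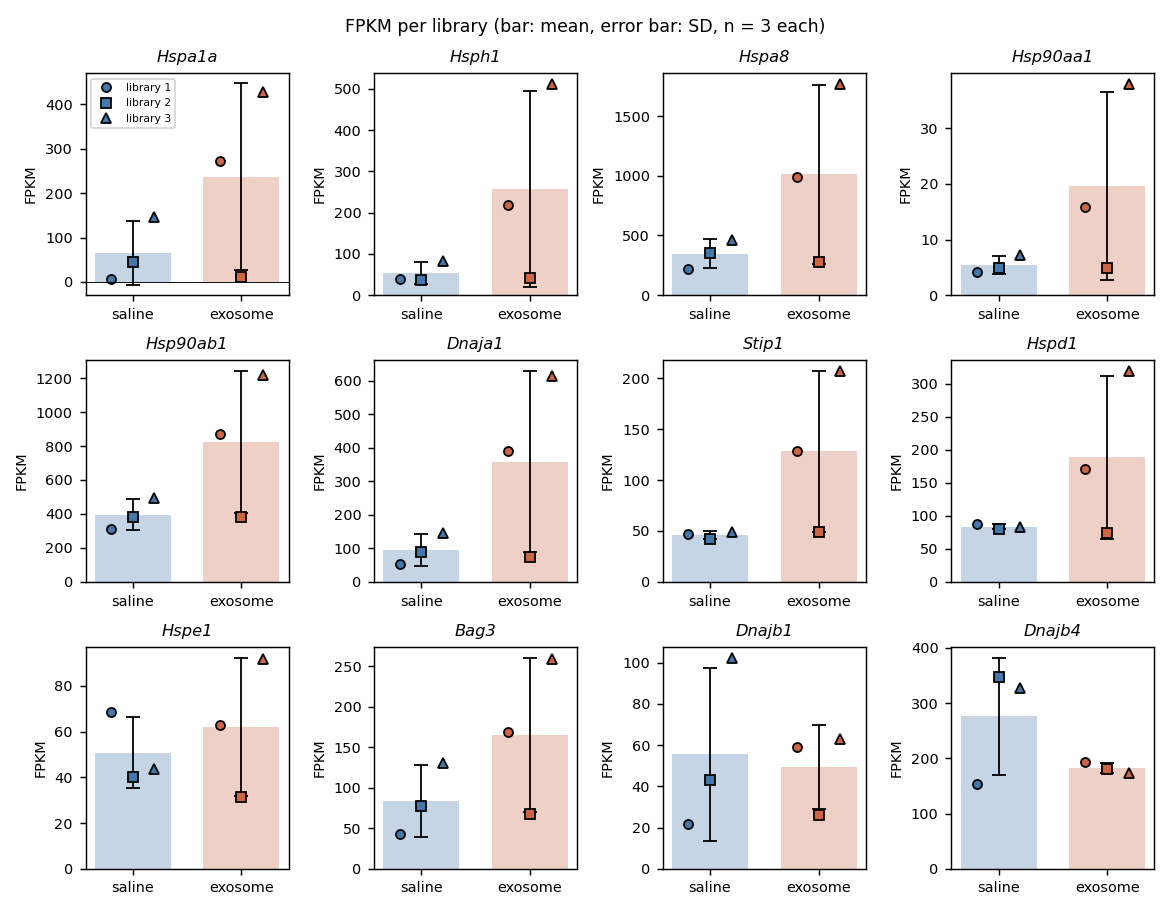
Points are single libraries (circle 1, square 2, triangle 3), bars the group means and error bars the SD (n = 3 each), in FPKM on linear axes that differ between genes. The square of exosome 2 sits near or among the saline points in most panels, while Dnajb1 and Dnajb4 have their highest values in saline libraries.

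Among the DNAJA and DNAJB genes, Dnaja1, Dnaja4 and Dnajb5 were highest in exosome 3 and next highest in exosome 1. Dnaja1, a main cytosolic partner of HSC70, stood at 52.0, 89.9 and 145 FPKM with saline and at 389.9, 74.0 and 613 FPKM with exosomes (log2 difference 1.56 ± 0.75, adjusted p = 0.343 in limma, and 0.95 without exosome 3 or 2.46 without exosome 2). Dnaja4 stood at 25.7, 22.5 and 29.6 FPKM with saline and at 55.7, 18.6 and 109.7 FPKM with exosomes. Dnajb5, which was 23.1 to 31.3 FPKM with saline, stood at 43.3, 23.3 and 49.3 FPKM with exosomes. Exosome 2 was in each of them within or below the saline range.

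Dnajb1, the stress-inducible HSP40, did not follow them. It stood at 21.5, 42.8 and 102 FPKM in saline 1, 2 and 3 and at 59.1, 25.9 and 63.1 FPKM in exosome 1, 2 and 3. Saline 3 was the highest of all libraries, so the difference was 0.01 ± 0.56 (adjusted p = 0.997 in limma), and its sign turned to negative under quantile normalization. Dnajb4, an HSP40 known from muscle and heart, stood at 153, 347 and 327 FPKM with saline and at 193, 180.3 and 174 FPKM with exosomes. Its 3 exosome libraries were close together, and saline 1 lay below them (log2 difference -0.51 ± 0.29, adjusted p = 0.404 in limma). The difference was -0.88 without saline 1 and -0.30 without saline 2. Dnajb14 (-0.22) and Dnajb12 (-0.11) were the other members of this list with a negative difference.

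Saline 1 was also lower than saline 2 and 3 for Jun and Atf3, immediate early genes, which are induced quickly by stimuli that include tissue handling. Jun stood at 74.3, 252 and 287 FPKM with saline and at 57.8, 53.2 and 55.0 FPKM with exosomes. Atf3 stood at 8.10, 171 and 134 FPKM with saline and between 6.60 and 8.14 FPKM with exosomes. Fos and Egr1 did not share this order: Fos stood at 78.4, 48.4 and 116 FPKM with saline and Egr1 at 281, 119 and 339 FPKM, with saline 2 the lowest of the group. With exosomes Fos stood at 8.06, 30.8 and 44.7 FPKM, below every saline library, and Egr1 at 51.9, 59.3 and 175 FPKM (adjusted p = 0.284 and 0.289 in limma). The part of tissue handling in these values was not tested.

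Of the remaining DNAJA and DNAJB genes, Dnajb2 and Dnaja2 had groups that did not overlap. Dnajb2, known from neurons, stood at 52.6, 51.5 and 58.8 FPKM with saline and at 81.3, 62.7 and 94.9 FPKM with exosomes (log2 difference 0.53 ± 0.16, adjusted p = 0.261 in limma). Dnaja2 stood at 49.6, 46.4 and 48.5 FPKM with saline and at 55.4, 56.1 and 59.0 FPKM with exosomes (0.24 ± 0.09, adjusted p = 0.291). In Dnaja2 the exosome libraries, exosome 2 included, were close together. Dnajb6 was nearly level, with a highest library 1.12 times its lowest. Of 10 tested genes of this list 7 had a positive difference (all genes: 39.3%), with a median of 0.13.

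The DNAJC genes share the J domain but have varied partners. Of 18 tested genes 13 had a negative log2 difference and 5 a positive one, beside 60.7% negative among all genes, and the median was -0.09 against -0.07 for all genes. The count of negative genes was 10 after rescaling to equal sums, to the median of ratios or to the same quantiles, where 51.6% to 56.1% of all genes were negative, and the median stayed below 0. Exosome 3 was the lowest library for 10 of them, where it was the lowest for 34.3% of all genes.

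Dnajc24, which has a role in diphthamide synthesis on elongation factor 2, was the chaperone gene that was lower at an unadjusted p under 0.05. It stood at 5.90, 7.99 and 7.71 FPKM with saline and at 3.80, 6.73 and 2.93 FPKM with exosomes, with 114 to 229 reads per library. Exosome 1 and 3 were below the saline range and exosome 2 within it (log2 difference -0.63 ± 0.25, adjusted p = 0.304 in limma). Dnajc21, a ribosome biogenesis factor, stood at 11.9, 10.8 and 10.0 FPKM with saline and at 15.8, 13.4 and 19.4 FPKM with exosomes, without overlap (0.52 ± 0.15, adjusted p = 0.261). Dnajc10, a disulfide reductase of the endoplasmic reticulum, stood at 46.7, 48.3 and 46.6 FPKM with saline and at 41.5, 42.8 and 38.8 FPKM with exosomes, also without overlap (-0.20 ± 0.09, adjusted p = 0.333). Dnajc2 and Dnajc17 were the other DNAJC genes whose exosome libraries were all below the saline ones. Dnajc8, a splicing-associated protein, had the highest level of the list and varied least, from 51.0 to 56.7 FPKM.

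In the mitochondrial list Hspd1 had the largest difference. Hspd1 stood at 87.8, 80.0 and 83.9 FPKM with saline and at 172, 73.8 and 320.1 FPKM with exosomes (log2 difference 0.92 ± 0.46, adjusted p = 0.353 in limma, and 0.42 without exosome 3 or 1.47 without exosome 2). The saline libraries of Hspd1 spread by few FPKM, and exosome 2 lay below them. Hspe1, its head-to-head neighbour, stood at 68.5, 39.9 and 43.6 FPKM with saline and at 63.0, 31.2 and 91.9 FPKM with exosomes (0.20 ± 0.38, adjusted p = 0.799). Both genes had their highest value in exosome 3 and their lowest in exosome 2, but saline 1 was high for Hspe1 only. Hspe1 has a short gene model with 499 to 2329 reads per library, and HSP60, HSP10, HSC70 and TRiC genes have processed pseudogenes with which reads can be shared.

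Hspa9, the mitochondrial HSP70 (mortalin), stood at 50.3, 57.0 and 49.1 FPKM with saline and at 65.6, 51.3 and 78.7 FPKM with exosomes (0.30 ± 0.16, adjusted p = 0.383 in limma). Exosome 2 was again within the saline range. Dnajc19, of the protein import motor, and Dnajc4 were lowest in exosome 3. Dnajc19 stood at 12.3, 11.6 and 10.0 FPKM with saline and at 9.25, 9.83 and 7.43 FPKM with exosomes, and Dnajc4 at 11.9, 15.0 and 14.3 FPKM with saline and at 11.6, 11.5 and 8.12 FPKM with exosomes. Both had groups that did not overlap (log2 differences -0.33 ± 0.14 and -0.38 ± 0.16, adjusted p = 0.312 and 0.314). Dnajc28, Dnajc30 and Dnajc15 were also negative, at -0.36, -0.31 and -0.20, while Dnaja3 and Dnajc11 were positive, at 0.09 and 0.21. The list of 10 thus had 5 positive and 5 negative genes (all genes: 39.3% positive), and its median of -0.06 turned to 0.01 after rescaling to the median of ratios.

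The TRiC chaperonin, a double ring of CCT subunits that folds actin and tubulin, had 8 tested subunits. All 8 had a positive log2 difference (all genes: 39.3%), from 0.21 to 0.71 with a median of 0.39. This sign held under each scaling tried, and with exosome 1 and 3 left out the median was 0.05. Cct3 stood at 57.5, 51.6 and 57.5 FPKM with saline and at 100.4, 63.2 and 121 FPKM with exosomes (0.71 ± 0.22, adjusted p = 0.266 in limma). Cct6a stood at 48.5, 45.2 and 52.1 FPKM with saline and at 74.7, 52.2 and 85.0 FPKM with exosomes (0.50 ± 0.18, adjusted p = 0.285). Tcp1, the first subunit, stood at 57.3, 59.0 and 55.7 FPKM with saline and at 86.0, 59.1 and 94.7 FPKM with exosomes (0.44 ± 0.17, adjusted p = 0.293). In these 3 subunits the groups did not overlap, although exosome 2 was above the saline range by a small margin in Cct6a and Tcp1.

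Cct4 stood at 64.6, 75.7 and 79.6 FPKM with saline and at 106, 77.1 and 119.6 FPKM with exosomes, and Cct5, the subunit with the highest level, at 110.0, 114 and 135 FPKM and at 140.0, 123 and 161 FPKM. Exosome 2 lay within the saline range for both. The subunits covered a narrow range of levels, from 45.2 FPKM for Cct6a to 161 FPKM for Cct5 over the libraries, and exosome 3 was the highest library for all 8. Cct6b, a testis subunit, stayed between 0.0921 and 0.621 FPKM and was not tested. The highest library of a tested subunit was 1.36 to 2.35 times its lowest, against 2.21 to 9.07 times for the HSP90 list.

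**Figure D4:**
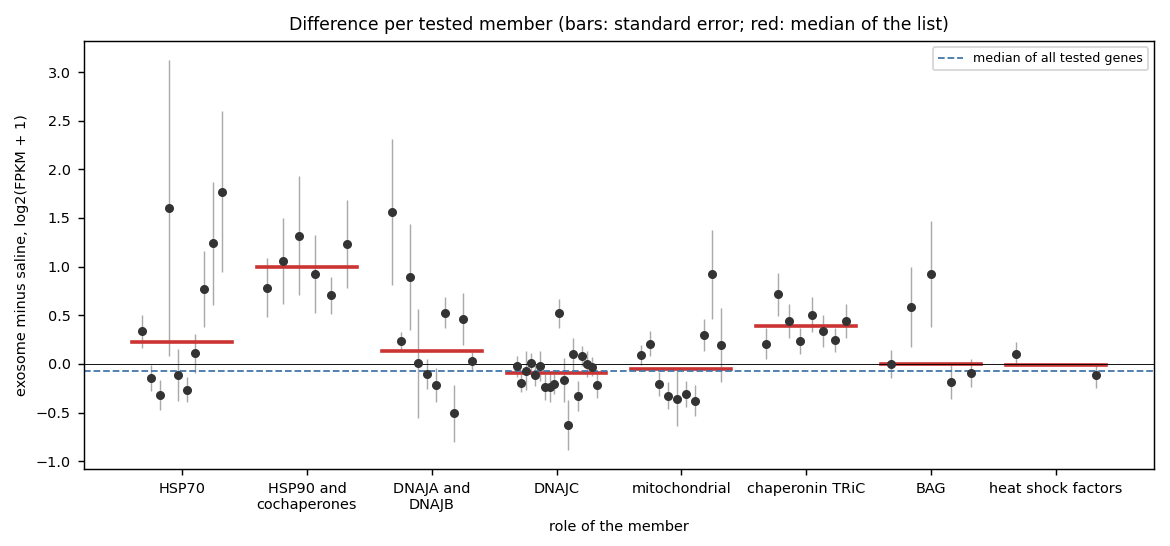
Each point is the exosome minus saline difference of a tested gene on the log2(FPKM + 1) scale with its standard error, grouped by role; red lines are list medians and the dashed line is the median of all tested genes, -0.07. The HSP90 and TRiC points all lie above 0, and the DNAJC points gather around the dashed line.

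Among the BAG genes, which bind the ATPase domain of HSP70, Bag3 and Bag2 varied most. Bag3, a cochaperone of selective autophagy that is induced by stress, stood at 42.4, 77.2 and 130.4 FPKM with saline and at 169, 67.9 and 259 FPKM with exosomes (log2 difference 0.92 ± 0.54, adjusted p = 0.408 in limma). Bag2 stood at 35.1, 25.7 and 25.6 FPKM with saline and at 53.8, 20.8 and 71.9 FPKM with exosomes (0.59 ± 0.41, adjusted p = 0.476). In both, exosome 1 and 3 were above all saline libraries and exosome 2 was within or below their range. Bag1, Bag4 and Bag6 had a highest library 1.44 to 1.56 times the lowest. The heat shock factors were level: Hsf1 stood at 16.8, 13.2 and 15.2 FPKM with saline and at 16.5, 14.8 and 17.2 FPKM with exosomes (adjusted p = 0.694 in limma). Hsf2 stood between 5.47 and 7.33 FPKM over the 6 libraries (adjusted p = 0.655). HSF1 is controlled mainly at the protein level, which RNA does not show.

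In the printed windows 4 genes had a 3-unit element, with the same stretch for Hspd1 and Hspe1. The libraries of these genes were far apart. Over Hsph1, Hspa8, Hspd1 and Hspe1 the highest library was 2.94 to 14.4 times the lowest, with a median of 6.18, and exosome 3 was the highest in all 4. The 11 tested genes with a 2-unit element only had a median of 1.65 (1.12 to 11.8), and 6 of them were highest in exosome 3. In 4 of these 11 the highest library was over 2 times the lowest. The 41 tested genes with a promoter but no match had a median of 1.65 as well (1.12 to 68.1), and 19 of them were highest in exosome 3. The highest library was over 2 times the lowest in 11 of these 41. A link between the element and the spread was not tested. Hspa1a, with the widest range of all, was among the genes without a match in the 250 bases before their annotated start. The search took exact units only, so elements with changed bases or outside these bases would be missed.

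Beyond the chaperones themselves, 39 other genes of the pathway were listed, and 38 of them were tested. None passed limma's test adjusted over all genes, 20 had a positive (all genes: 39.3%) and 18 a negative difference, and the median was 0.03. At an unadjusted p under 0.05 in limma, 2 of the 38 were higher (all genes: 6.75%) and 1 was lower (all genes: 9.24%). The small heat shock proteins Hspb1, Hspb8 and Cryab were highest in exosome 3 and next highest in exosome 1, while exosome 2 was the lowest of all libraries for Hspb1 and Cryab and within the saline range for Hspb8. Hspb1 stood at 1167, 477 and 779 FPKM with saline and at 2803, 364 and 5444 FPKM with exosomes (adjusted p = 0.504 in limma), and Hspb8 at 8.92, 9.39 and 7.39 FPKM and at 16.9, 8.42 and 28.9 FPKM (adjusted p = 0.319). Cryab was high in saline 1 too, with 519, 165 and 193 FPKM in the saline libraries and 520.4, 119 and 825 FPKM in the exosome libraries.

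Fkbp4 and Ptges3 encode HSP90 cochaperones of the steroid receptor complex. Fkbp4 stood at 52.0, 25.3 and 35.2 FPKM with saline and at 86.0, 35.3 and 115 FPKM with exosomes. Ptges3, known as p23, stood at 70.4, 74.1 and 75.7 FPKM with saline and at 108, 80.7 and 131 FPKM with exosomes, without overlap (log2 difference 0.50 ± 0.17, adjusted p = 0.284 in limma). Fkbp5, a cochaperone of the same family and a textbook glucocorticoid target, had another order: 3.69, 6.23 and 9.17 FPKM with saline and 17.3, 30.5 and 22.0 FPKM with exosomes, highest in exosome 2 (1.75 ± 0.30, adjusted p = 0.219). Trap1, the mitochondrial HSP90, was lower in all exosome libraries, at 16.3, 15.7 and 14.9 FPKM with saline and at 10.8, 12.0 and 10.7 FPKM with exosomes (-0.45 ± 0.10, adjusted p = 0.255 in limma). The prefoldin genes Pfdn1, Pfdn2, Pfdn4, Pfdn5 and Pfdn6 had log2 differences between -0.25 and 0.04.

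Cirbp, which encodes a cold-inducible RNA-binding protein, stood at 42.0, 46.1 and 58.2 FPKM with saline and at 28.7, 42.5 and 17.6 FPKM with exosomes. Exosome 3 was its lowest library, exosome 1 the next, and exosome 2 lay within the saline range, while 33.5% of all genes were likewise below every saline library in exosome 1 and 3 (log2 difference -0.77 ± 0.29, adjusted p = 0.291 in limma). Rbm3, another cold-inducible gene, did not share this order, at 147, 237 and 226 FPKM with saline and 212, 226 and 231 FPKM with exosomes. The labels give no temperature of the animals or the tissue. Smooth muscle marker sums were 21001, 14177 and 13191 FPKM in saline 1, 2 and 3 and 20787, 14612 and 18899 FPKM in exosome 1, 2 and 3. They were thus high in exosome 1 and 3 and also in saline 1, which was the lowest library for 17 of the 69 chaperone genes (all genes: 15.3%), and their part was not tested.

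**Figure D5:**
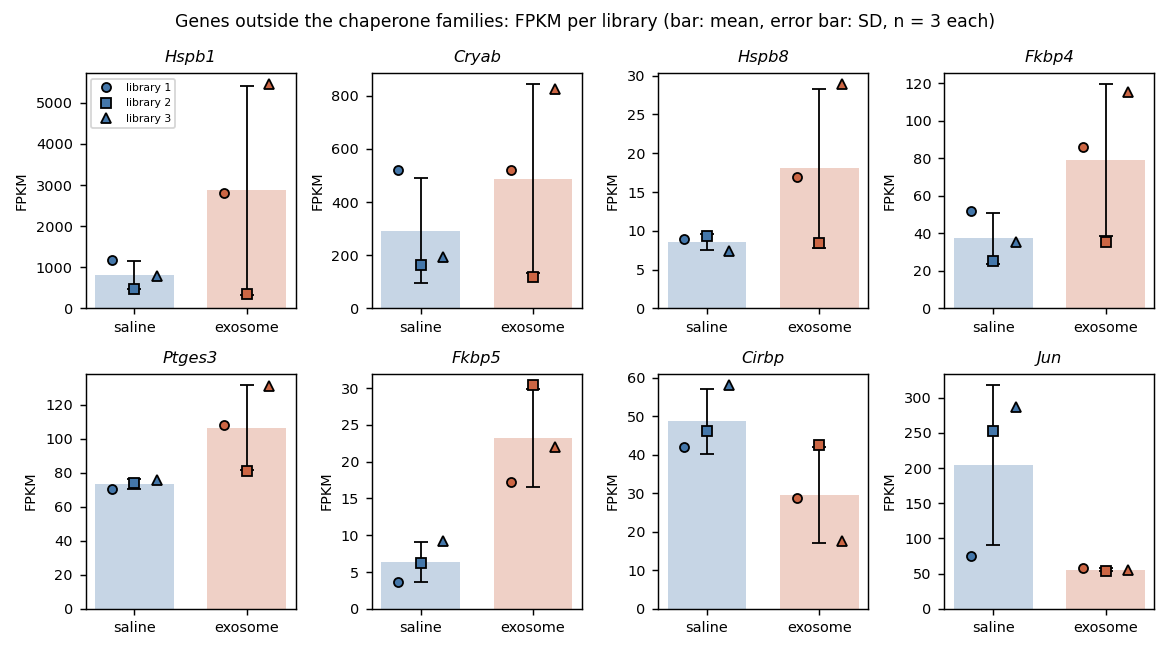
Points are single libraries (circle 1, square 2, triangle 3), bars the group means and error bars the SD (n = 3 each), in FPKM on linear axes that differ between genes. Hspb1, Cryab, Hspb8 and Fkbp4 have their highest value in exosome 3 and a low exosome 2, Cirbp has its lowest value in exosome 3, Ptges3 is above all saline points in the 3 exosome libraries, Fkbp5 is highest in exosome 2, and Jun is highest in saline 2 and 3.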

How the data were processed

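The deposited values are FPKM in 1 table, whose 6 columns carry the sample titles. Per the labels' protocols, libraries were made with a SMARTER mRNA-seq kit. The submitters' processing notes name DESeq2 1.28.1 without its role. For the aligner, counting tool, strand setting, build and annotation nothing is stated in the labels or the header, so overlapping, antisense and near-identical genes could not be separated. Whole reads, library totals and gene lengths were recovered from the steps of the FPKM values (100.0% of 18430 genes above 0, within 0.02 reads). Because the labels do not tie libraries to animals, p-values cover only the spread among these libraries, which may be technical.

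The test was limma 3.58.1 (R 4.3.3) on log2(FPKM + 1) with an intensity trend, two-sided, for genes whose mean FPKM reached 1, adjusted by Benjamini-Hochberg over all tested genes, with a threshold of 0.05 and no covariate. This scale understates the change of low genes. The fit was also run on simulated counts, with the same variability setting for every gene and no library effects beyond depth. That run does not measure how the test performs on these libraries. Members, role lists, the other pathway genes and the rule for named genes were chosen with earlier results of these data known. The rule took, per role list, the 2 genes with the smallest p and the 2 with the highest mean, plus 20 listed symbols, of which Hspa1b was not analysed here; other genes were named after their values were seen. Symbols with Cct or Bag followed by a digit, or by a digit and a letter, were taken. Sequences are from RefSeq (GRCr8). Alternatives were other pseudocounts (0.1, 0.01), filters, scalings, moderation, library weights, a replicate block and each library left out; a fit without exosome 1 and 3, limma-voom on recovered reads and the overlap counts under other settings were added after the data were seen. Tables and figures were made in Python 3.11.15.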

Additional observations from a re-analysis of the deposited data

How the results depend on the processing

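Over 33 named chaperone genes and their alternatives, 583 of 627 values kept direction and side of the threshold, 20 passed the threshold (all with library weights) and 24 changed sign; 18 genes never changed sign. Library weights, whose estimation stopped before convergence, gave exosome 1 a weight of 9.2. With them 28 of the 69 tested chaperone genes were called, against 3268 of all 11742 genes (27.8%). At an unadjusted p under 0.05 in limma there were 43 of the 69 (all genes: 43.8%). Of these, 28 were higher (all genes: 13%) and 15 lower (all genes: 30.8%). Quantile normalization called 2 genes in all. The median of the chaperone genes was 0.159 after rescaling to the median of ratios and 0.040 with no filter. Groups without overlap were lower for 2 of the 69 chaperone genes after rescaling to equal sums (all genes: 8.2%). The median of ratios also left 2 of the 69 (all genes: 10.6%). These scalings also moved the median log2 difference of all genes, from -0.0729 to -0.0400 and -0.0105. The counts are thus no result about the chaperone genes. Leaving out each library in turn gave 0 (without saline 3 or exosome 1) to 9 (without saline 1) calls in all, 4 (without exosome 3, all genes: 8.05%; 6 without exosome 1, all genes: 9.36%) to 40 (without exosome 2, all genes: 27.4%) chaperone genes at an unadjusted p under 0.05 and a median of 0.052 to 0.157. The genes without overlap were then 7 to 30 as higher and 5 to 19 as lower, the most without exosome 2 (all genes: 14.9% higher and 33.5% lower). No chaperone gene was called in any of these 6 fits. Without saline 3, 14 were higher without overlap (all genes: 12.5%), and 11 were lower without saline 1 (all genes: 24.5%) and without saline 2 (all genes: 17.1%).

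With exosome 1 and 3 both left out, exosome 2 was the lone treated library, assumed to vary like the saline libraries. Then 0 genes were called in all, 1 chaperone gene had an unadjusted p under 0.05 (all genes: 5.9%), 17 were higher (all genes: 29.7%) and 14 lower (all genes: 21.8%) than all saline libraries, and the median was -0.021 (all genes: 0.03). Log2 differences became -1.653 for Hspa1a, -0.799 for Dnajb1, -0.640 for Hspe1, -0.437 for Bag2, -0.265 for Hspa8, -0.246 for Dnaja1, -0.209 for Hsph1, -0.182 for Hspd1, -0.149 for Bag3, -0.115 for Hsp90aa1, -0.039 for Chordc1, -0.021 for Hsp90ab1, -0.020 for Hsf1 and -0.019 for Hspa9. Dnajb1, near 0, was -0.014 under quantile normalization and -0.520 to 0.580 with 1 library left out. Dnajc8 was 0.010 with equal sums, 0.043 with the median of ratios, 0.060 with library weights and -0.072 to 0.003 with 1 library left out, and Hspe1 was -0.145 to 0.618 with 1 library left out. Beyond the construction of each alternative, the cause was not tested.

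The labels name no link between same-numbered libraries of the groups. The correlations of their deviations were 0.07, 0.10 and -0.17, beside -0.24 to 0.21 for pairs with unlike numbers. These correlations do not settle whether the libraries were paired. With the replicate block 22 chaperone genes had an unadjusted p under 0.05, 20 as higher (all genes: 6.26%) and 2 as lower (all genes: 8.33%), and none was called. Depth limits the genes with few reads, such as Dnajc24, Dnajc12 and Dnajc28.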

Other observations

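The chaperones of the endoplasmic reticulum that were left out of the chaperone list varied less between libraries than Hspa8. Hspa5, which encodes BiP, stood at 158, 145 and 118 FPKM with saline and at 187, 153 and 206 FPKM with exosomes (log2 difference 0.37 ± 0.16, adjusted p = 0.309 in limma). Exosome 3 was its highest library, but the highest was 1.74 times the lowest, against 8.02 times for Hspa8. Hspa8 varied more than most, as the median of this ratio was 1.66 over the 69 tested chaperone genes and 1.58 over all genes. Hsp90b1, the HSP90 of this compartment, stood at 220.0, 189 and 162 FPKM with saline and at 198, 197 and 206 FPKM with exosomes. Dnajc3 had groups without overlap, at 25.6 to 29.9 FPKM with saline and 30.9 to 32.7 FPKM with exosomes (adjusted p = 0.313), and Dnajb9 and Hyou1 had log2 differences of -0.03 and 0.09.

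Of the 10 chaperone genes below the mean of 1 FPKM, Dnajb8, Dnajc5b and Dnajc5g were listed at 0 in every library. Dnajb13, Dnajb7, Dnajb3 and Cct6b are known mainly from testis and held 0 to 41 reads per library. Bag5 held 6 to 15 reads per library and Dnajc6, a clathrin uncoating factor, 0 to 8. Hspa12a was just under the minimum, with 94 to 280 reads per library.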
